A study of Homo sapiens with 8 samples.

Results

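The miR-30 family of microRNAs was followed in small RNA libraries from HEK293, an established human embryonic kidney cell line. Its members were all rows of the deposited table named miR-30a to miR-30e, with or without a copy number or an arm. The rule found 5 of 2867 entries, all of them 5p arms: miR-30a-5p, miR-30b-5p, miR-30c-5p, miR-30d-5p and miR-30e-5p. The 3p arms were not analysed here. The 4 ASO libraries came from cells transfected with 100 nM of an antisense oligonucleotide, which is a short synthetic strand made to pair with one RNA, and the 4 NoASO libraries from cells given none. All cells were harvested after 48 h. Its target was miR-31, going by the names of the libraries, and the stated purpose was to look for off-target changes. No library received an unrelated oligonucleotide, and the labels do not say whether NoASO cells were mock-transfected, so an effect of this sequence cannot be told apart from one of transfection. HEK293 is a transformed line and stands for no single cell type of the kidney.

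A microRNA is cut from a hairpin precursor, first by Drosha in the nucleus and then by Dicer in the cytoplasm, and guides Argonaute to messenger RNAs that pair with its seed, bases 2 to 8. The miR-30 family is abundant in kidney and many other differentiated tissues, where it restrains epithelial-to-mesenchymal transition, fibrosis and autophagy and protects podocytes. Its members share a seed and therefore overlap widely in targets, while the bases behind the seed set the members apart.

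The mature sequences show how little separates the entries that are counted apart, and come from RefSeq (GRCh38.p14), which held 3 of the 5 entries by name. They are written 5′ to 3′ with the seed in capitals.
miR-30a-5p: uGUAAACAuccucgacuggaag
miR-30e-5p: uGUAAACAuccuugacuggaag
miR-30c-5p: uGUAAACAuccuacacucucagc
Counting from 1 at the 5′ end, miR-30a-5p and miR-30e-5p differ at 1 of 22 positions, C13U, so a read with 1 error can pass from one entry to the other. miR-30c-5p shares the first 12 bases with both and differs from miR-30a-5p at 5 of the 22 positions compared (C13A, G14C, G18C, G19U and A20C). Among 2370 mature sequences in the RefSeq table, these 3 were the ones with the seed GUAAACA. That set held neither miR-30b-5p nor miR-30d-5p by name, so the search could not find them and says nothing about their seeds. miR-30b-5p and miR-30d-5p were followed by their counts alone.

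The 5 entries come from 6 hairpin genes at 3 loci. MIR30E (chromosome 1, 40754355 to 40754446, plus strand) and MIR30C1 (chromosome 1, 40757284 to 40757372, plus strand) lie 2837 bases apart in an intron of NFYC, which encodes a subunit of a CCAAT-binding transcription factor. MIR30A (chromosome 6, 71403551 to 71403621, minus strand) and MIR30C2 (chromosome 6, 71376960 to 71377031, minus strand) lie 26519 bases apart in an intron of LINC00472, a gene for a long noncoding RNA. miR-30c-5p is encoded at both MIR30C1 and MIR30C2, so its count cannot be divided between chromosomes 1 and 6. The hairpins with a RefSeq sequence are printed below with the counted 5p arm in capitals, to show that the arm from MIR30C1 and the arm from MIR30C2 are the same while the rest of the precursor is not.
MIR30E: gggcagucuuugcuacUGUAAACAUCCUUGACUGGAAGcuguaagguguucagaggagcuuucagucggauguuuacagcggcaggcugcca
MIR30C1: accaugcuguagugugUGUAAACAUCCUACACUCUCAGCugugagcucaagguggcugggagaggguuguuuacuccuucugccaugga
MIR30A: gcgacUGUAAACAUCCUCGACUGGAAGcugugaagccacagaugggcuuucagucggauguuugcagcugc
MIR30C2: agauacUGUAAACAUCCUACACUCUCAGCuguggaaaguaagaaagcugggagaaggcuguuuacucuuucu

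At the third locus, MIR30B (chromosome 8, 134800520 to 134800607, minus strand) and MIR30D (chromosome 8, 134804876 to 134804945, minus strand) lie 4268 bases apart, and GENCODE release 29 places no other gene over them. Each of the loci thus holds a pair of hairpins with different mature 5p arms.

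The libraries held 8168828 to 11677123 counts, so that 1 count was 0.0856 to 0.122 CPM, the count scaled to the library's total. Levels below are CPM scaled between libraries by TMM, edgeR's trimmed mean of M-values. miR-31-5p, an arm of the presumed target, stood at 633 to 1012 CPM in ASO libraries and 348 to 1050 CPM in NoASO libraries. The names of the libraries give miR-31 without an arm. The log2 fold change of miR-31-5p was 0.19 (adjusted p = 0.851 by edgeR's quasi-likelihood test). It therefore gave no check of the labels, on which every direction below rests. HOX-cluster and miR-17-92 microRNAs typical of HEK293 were present at a summed 121107 to 127285 CPM in ASO libraries and 122209 to 132069 CPM in NoASO libraries, over 7 of 7 tested entries. Summed blood markers stood at 72.9 to 89.6 CPM in ASO libraries and 80.6 to 85.1 CPM in NoASO libraries, and muscle markers at 5.31 to 9.56 CPM in ASO libraries and 5.10 to 7.10 CPM in NoASO libraries. The blood sum was nearly all miR-486-5p (mean 81.5 CPM with ASO and 82.6 CPM without), the other 3 blood entries averaging at most 0.344 CPM in either group, and the muscle sum was mostly miR-1-3p (6.37 CPM with ASO and 5.58 CPM without). Summed neural markers stood higher, at 3072.5 to 3450.2 CPM in ASO libraries and 3401.5 to 3745.9 CPM in NoASO libraries. The neural sum was nearly all miR-9-5p (mean 3318.0 CPM with ASO and 3562.6 CPM without), and the reason for its level was not tested. Markers of mature kidney and epithelium summed to 123.7 to 157.7 CPM in ASO libraries and 107.7 to 141.8 CPM in NoASO libraries. Chi-square over its degrees of freedom was 176 to 417 between the counts of 2 ASO libraries. It was 278 to 801 between NoASO library 1 and another control and 135 to 270 for pairs among the other 3 controls, so the nearest control to NoASO library 1 was within the range of the ASO pairs and the other 2 were beyond it. Values of the miR-30 entries that moved most without this library are given with and without it. Nothing in the labels says that each library had a culture of its own, so the p-values speak of the scatter among these 8 libraries, part or all of which may be technical.

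Together the 5 entries made up a small part of each library, 4.60% to 5.14% of counts in ASO libraries and 4.36% to 4.73% in NoASO libraries. The summed level was 52163, 48444, 51136 and 44821 CPM in ASO libraries 1 to 4. It was 45120, 47863, 46298 and 46472 CPM in NoASO libraries 1 to 4. The lowest sum of all was in ASO library 4, so the groups overlapped. The mean was 49141 ± 3279 CPM with ASO and 46438 ± 1123 CPM without (SD, n = 4 each), a difference of 2703 CPM. This difference was below the SD of the ASO libraries and above that of the NoASO libraries. It was 1696 CPM without ASO library 1 and 4143 CPM without ASO library 4.

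The levels of the entries spanned more than an order of magnitude. miR-30a-5p ranked 16th among the 539 tested known microRNAs, miR-30d-5p 20th, miR-30c-5p 25th, miR-30e-5p 37th and miR-30b-5p 116th. miR-30a-5p was above miR-30d-5p in 8 of 8 libraries, with means over all libraries 1.36-fold apart. miR-30d-5p and miR-30c-5p did not separate: miR-30d-5p was higher in 7 of 8 libraries and miR-30c-5p in ASO library 3. miR-30c-5p lay above miR-30e-5p and miR-30e-5p above miR-30b-5p in 8 of 8 libraries, by 2.24-fold and 13.6-fold in mean. The mature forms have nearly one length, so counts were not divided by it, but ligation and PCR favour some sequences, and the order is one of counts rather than of molecules.

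**Figure D1:**
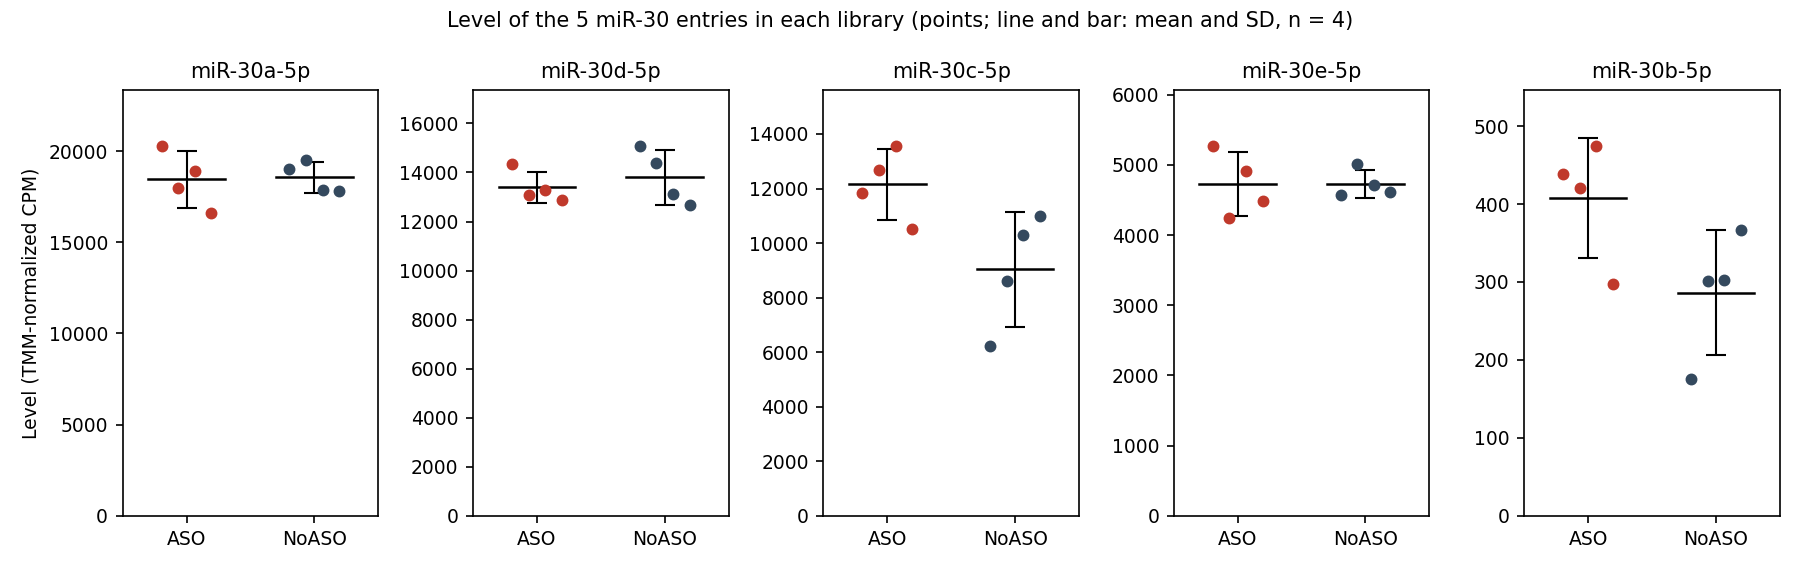
Level of each miR-30 entry in TMM-normalized CPM (y axes, each from 0) in the 4 ASO and 4 NoASO libraries (points), with mean (line) and SD (bar). The groups overlap in all 5 panels; miR-30c-5p and miR-30b-5p have 3 ASO libraries above all 4 NoASO libraries, while miR-30a-5p, miR-30d-5p and miR-30e-5p have means at nearly one height.

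miR-30a-5p, the most abundant member, is known to repress the autophagy gene BECN1 and the transition factor SNAI1. Its level was 20292, 17991, 18905 and 16617 CPM in ASO libraries 1 to 4. In NoASO libraries 1 to 4 it was 19053, 19527, 17898 and 17842 CPM. ASO libraries held both the highest and the lowest value, and the groups overlapped. The mean was 18451 ± 1546 CPM with ASO and 18580 ± 843 CPM without (SD, n = 4 each), and edgeR gave a log2 fold change of −0.010 (SE 0.070, 95% interval −0.17 to 0.15, adjusted p = 0.972), with a fold interval of 0.887 to 1.11.

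miR-30d-5p, which represses the glycosyltransferase gene GALNT7 in melanoma together with miR-30b-5p, had levels of 14331, 13088, 13275 and 12898 CPM in ASO libraries 1 to 4. In NoASO libraries 1 to 4 it had 15083, 14402, 13105 and 12661 CPM. Both extremes lay among the NoASO libraries, the highest in NoASO library 1, and the groups overlapped. The mean was 13398 ± 641 CPM with ASO and 13813 ± 1124 CPM without (SD, n = 4 each; log2 fold change −0.044, SE 0.069, 95% interval −0.20 to 0.12, edgeR adjusted p = 0.842). Without NoASO library 1 the log2 fold change was 0.016.

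miR-30e-5p had 5271, 4248, 4920 and 4490 CPM in ASO libraries 1 to 4. It had 4569, 5014, 4713 and 4620 CPM in NoASO libraries 1 to 4. The ASO libraries again held both extremes, and the NoASO libraries lay between them. The mean was 4732 ± 454 CPM with ASO and 4729 ± 199 CPM without (SD, n = 4 each; log2 fold change 0.0010, SE 0.075, 95% interval −0.17 to 0.18, edgeR adjusted p = 0.995). The intervals of these 3 entries therefore leave room for folds between 0.868 and 1.13, the outermost of their bounds.

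miR-30c-5p, which is known to repress the fibrosis factor CCN2 (CTGF) and the lipoprotein assembly gene MTTP, varied far more over the 8 libraries. It stood at 11831, 12697, 13561 and 10519 CPM in ASO libraries 1 to 4, from 116029, 151262, 151737 and 108962 counts. It stood at 6241, 8618, 10279 and 10982 CPM in NoASO libraries 1 to 4, from 63296, 81107, 85807 and 125218 counts. Of the ASO libraries 3 were above all NoASO libraries, but ASO library 4 lay below NoASO library 4, so the groups overlapped. The mean was 12152 ± 1298 CPM with ASO and 9030 ± 2107 CPM without (SD, n = 4 each), a fitted fold of 1.35 (95% interval 1.01 to 1.79). The log2 fold change of 0.43 (SE 0.18) had an unadjusted p of 0.0434 and missed the threshold after adjustment over all 745 entries (edgeR adjusted p = 0.445). The mean log2 levels differed by 0.45 (exact two-sided permutation test, p = 0.0571). With 4 libraries a group, 0.0286 is the lowest p this test can give.

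NoASO library 1 was the lowest of the 8 for miR-30c-5p, at 0.627 times the mean of the other 3 controls, which stood at 9960 ± 1214 CPM (SD, n = 3). In that library the Wilson 95% interval of the level before TMM scaling was 5983 to 6077 CPM, so counting error was small beside the distance; intervals of this kind cover counting error only. Without it the log2 fold change was 0.30 (edgeR adjusted p = 0.615), and over the other libraries left out in turn it reached 0.54.

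miR-30b-5p, the least abundant member, moved with miR-30c-5p. It had 438, 421, 475 and 297 CPM in ASO libraries 1 to 4, from 4297, 5014, 5310 and 3081 counts. It had 175, 301, 303 and 367 CPM in NoASO libraries 1 to 4, from 1776, 2835, 2526 and 4180 counts. Again 3 ASO libraries were above all NoASO libraries, ASO library 4 lay among the controls, and NoASO library 1 was the lowest of all. The mean was 408 ± 76.9 CPM with ASO and 286 ± 80.2 CPM without (SD, n = 4 each), a fitted fold of 1.42 (95% interval 0.967 to 2.10; log2 fold change 0.51, SE 0.24, edgeR adjusted p = 0.445). The exact two-sided permutation test on log2 levels gave p = 0.114. NoASO library 1 held 0.541 times the mean of the other controls, 323 ± 37.4 CPM (SD, n = 3), and without it the log2 fold change was 0.35 (edgeR adjusted p = 0.690).

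**Figure D2:**
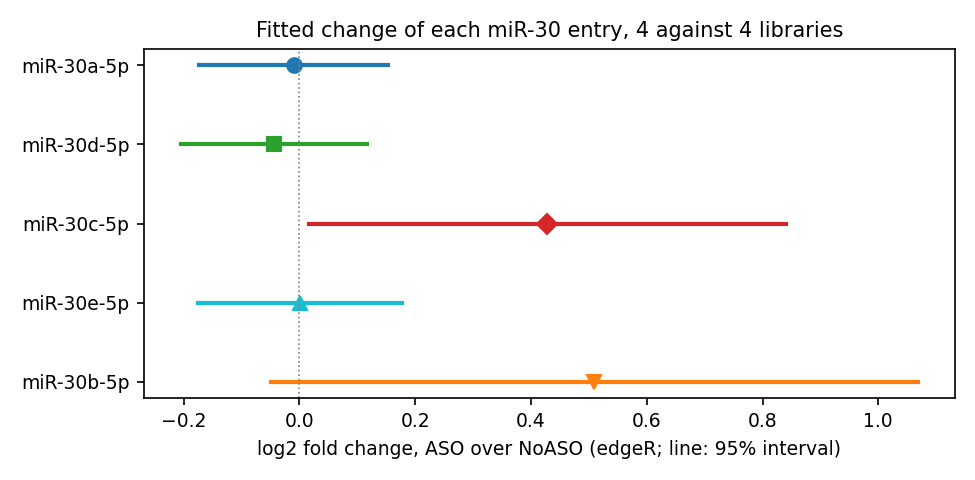
Fitted log2 fold change of each miR-30 entry, ASO over NoASO (x axis), from edgeR on 4 against 4 libraries, with its 95% interval (line). miR-30a-5p, miR-30d-5p and miR-30e-5p lie within 0.05 of 0 with narrow intervals, while miR-30c-5p and miR-30b-5p lie at 0.43 and 0.51 with wide ones.

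Of the 5 entries, 0 passed the adjusted threshold in edgeR's quasi-likelihood test, where 1 of 745 entries passed (0.134%), and 1 had an unadjusted p under 0.05, where 78 of 745 did (10.5%). DESeq2 also called 0 of the 5, against 23 of 745 (3.09%). The ASO and NoASO libraries overlapped in all 5 entries, while they were apart in 62 of 745 (8.32%). The median log2 fold change was 0.0010 over the family and 0.012 over all tested entries, and 3 of 5 members and 385 of 745 entries had a fold above 1. For miR-30c-5p, 68 of the 745 entries had a smaller p, and for miR-30b-5p, 109 did.

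Spread over all 8 libraries, which includes any difference between the groups, divided the family in the same way. Within the groups the division was less even. Among ASO libraries the SD was 10.7% of the mean for miR-30c-5p, 8.38% for miR-30a-5p and 9.60% for miR-30e-5p. It was 4.78% for miR-30d-5p and 18.9% for miR-30b-5p. Among NoASO libraries it was 23.3% for miR-30c-5p and 28.0% for miR-30b-5p, and 4.53%, 8.13% and 4.21% for miR-30a-5p, miR-30d-5p and miR-30e-5p. The SD over 8 libraries of the log2 level was 0.090 for miR-30a-5p, 0.091 for miR-30d-5p and 0.099 for miR-30e-5p. It was 0.36 for miR-30c-5p and 0.46 for miR-30b-5p, but 0.22 and 0.29 without NoASO library 1, which moved both by more than 1.5-fold; the other 3 entries then stood between 0.073 and 0.10. Among the 80 known microRNAs with a mean of at least 1000 CPM the median SD was 0.15, and 17, 18 and 22 of them varied less than miR-30a-5p, miR-30d-5p and miR-30e-5p, in that order, while 69 varied less than miR-30c-5p. Among all 539 tested known microRNAs, whose median was 0.25, 440 varied less than miR-30b-5p. Over the 7 libraries without NoASO library 1 the median of the 80 was 0.11. Of these 80, 31 then varied less than miR-30a-5p, 15 less than miR-30d-5p, 37 less than miR-30e-5p and 67 less than miR-30c-5p. miR-30a-5p and miR-30e-5p, at SDs of 0.096 and 0.10, were thus nearer that median. Without the same library the median of the 539 was 0.22 and 378 varied less than miR-30b-5p. In NoASO library 1, 49 of the 80 abundant microRNAs were below the mean of the other controls on the log2 scale, by a median over all 80 of 0.069, and 8 of them lay further below than miR-30c-5p.

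**Figure D3:**
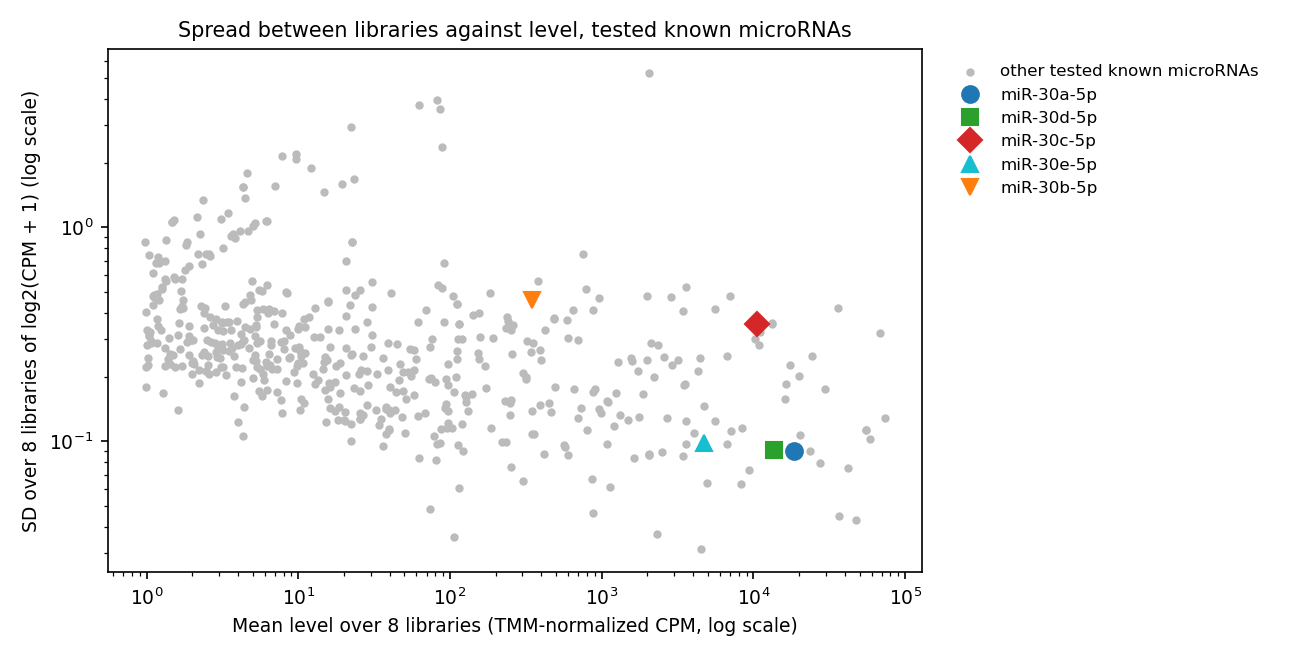
SD over the 8 libraries of log2(CPM + 1) (y axis, log scale) against mean level in TMM-normalized CPM (x axis, log scale) for the 539 tested known microRNAs (grey) with the 5 miR-30 entries marked. miR-30a-5p, miR-30d-5p and miR-30e-5p have SDs near 0.09 to 0.10, and miR-30c-5p has 0.36 at a mean level between those of miR-30d-5p and miR-30e-5p.

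**Figure D4:**
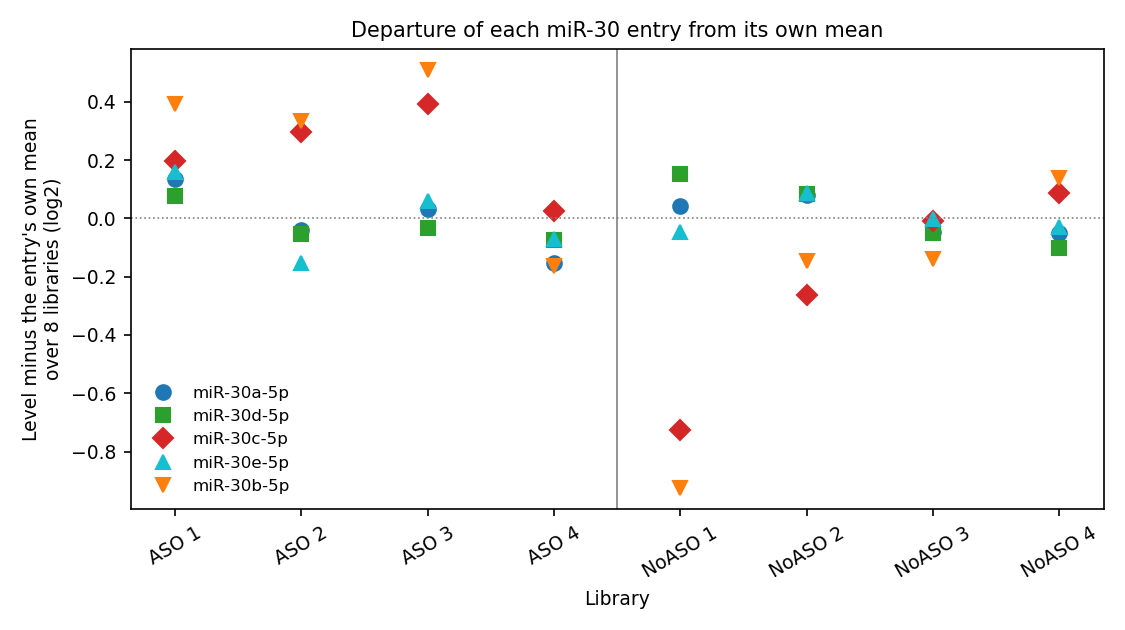
Log2 level of each miR-30 entry minus its own mean over the 8 libraries (y axis), by library (x axis; vertical line between ASO and NoASO). miR-30c-5p and miR-30b-5p fall to −0.73 and −0.92 in NoASO library 1, where the other 3 entries lie within 0.16 of 0.

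Steady and varying here refer to the spread over all 8 libraries. Each locus holds a hairpin of 1 steady and 1 varying entry. miR-30c-5p is a single count from chromosomes 1 and 6, so its variation cannot be placed at either locus. Only on chromosome 8 do both entries come from that locus alone. At the chromosome 8 locus, miR-30b-5p had 0.0306, 0.0322, 0.0357 and 0.0231 counts for each count of miR-30d-5p in ASO libraries 1 to 4. In NoASO libraries 1 to 4 it had 0.0116, 0.0209, 0.0231 and 0.0290. This ratio, which does not depend on scaling between libraries, ranged 3.08-fold over the 8 libraries and 1.71-fold without NoASO library 1, and the groups overlapped. On chromosome 6 the ratio of miR-30c-5p to miR-30a-5p was 0.583, 0.706, 0.717 and 0.633 in ASO libraries 1 to 4. NoASO libraries 1 to 4 had ratios of 0.328, 0.441, 0.574 and 0.616. It ranged 2.19-fold over the 8 libraries, as did that of miR-30c-5p to its chromosome 1 neighbour miR-30e-5p. Without NoASO library 1 these ranges were 1.63-fold and 1.74-fold. ASO library 1 lay below NoASO library 4 in both ratios.

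Ratios between entries of different loci were not all steadier. Pairs of 1 steady and 1 varying entry ranged as widely as the neighbours did, 2.47-fold for miR-30c-5p to miR-30d-5p, 2.58-fold for miR-30b-5p to miR-30e-5p and 2.73-fold for miR-30a-5p to miR-30b-5p, and 1.71-fold, 1.65-fold and 1.63-fold without NoASO library 1. Pairs of 2 steady or 2 varying entries ranged less. The ratio of miR-30e-5p to miR-30a-5p lay between 0.236 and 0.270 in ASO libraries and between 0.240 and 0.263 in NoASO libraries, a range of 1.14-fold over all 8. That of miR-30d-5p to miR-30a-5p ranged 1.13-fold. The ratio of miR-30b-5p to miR-30c-5p ranged 1.32-fold, from 0.0283 to 0.0370 in ASO libraries and from 0.0281 to 0.0350 in NoASO libraries, while miR-30b-5p ranged 2.71-fold and miR-30c-5p 2.17-fold in level. Without NoASO library 1 the ratio ranged 1.31-fold and the levels 1.60-fold for miR-30b-5p and 1.57-fold for miR-30c-5p. miR-30a-5p and miR-30e-5p differ by a single base, and how many reads pass between their entries was not tested. The sequences of miR-30b-5p and miR-30d-5p were not compared with the others. Passage of reads to or from their entries, including between miR-30d-5p and miR-30a-5p or miR-30b-5p and miR-30c-5p, was not tested either.

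The make-up of the family followed. miR-30a-5p took 37.5% ± 0.923 of the summed miR-30 counts with ASO and 40.0% ± 1.82 without, and miR-30d-5p took 27.3% ± 1.17 with ASO and 29.8% ± 2.71 without (SD, n = 4 each). miR-30c-5p took 24.7% ± 1.93 with ASO and 19.4% ± 4.42 without, and its share ran over all libraries from 13.8% in NoASO library 1 to 26.5% in ASO library 3. miR-30e-5p took 9.63% ± 0.610 with ASO and 10.2% ± 0.222 without, and miR-30b-5p 0.825% ± 0.114 with ASO and 0.615% ± 0.167 without. The difference of 5.30 points in the share of miR-30c-5p was 3.44 points without NoASO library 1, and that of −2.46 points for miR-30d-5p was −1.24 points.

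**Figure D5:**
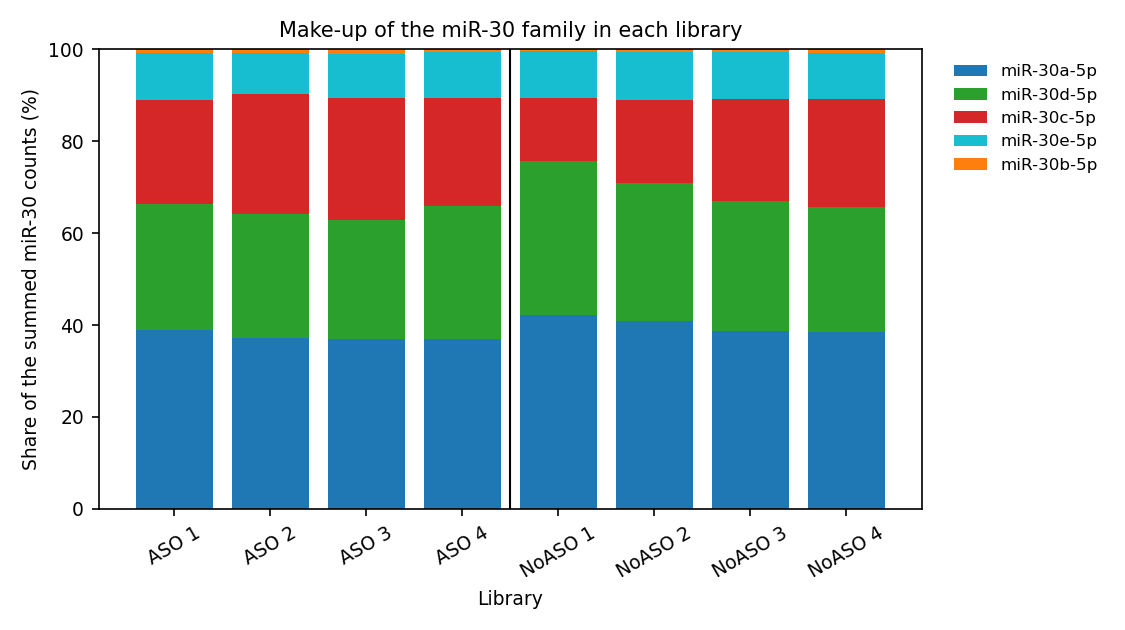
Share of the summed miR-30 counts taken by each entry (y axis, percent) in the 4 ASO libraries (left of the line) and the 4 NoASO libraries (right). miR-30c-5p takes its smallest share, 13.8%, in NoASO library 1 and its largest, 26.5%, in ASO library 3.

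Profiles over the 8 libraries were compared by the root mean square difference between log2 levels, each centred on its own mean, among 534 tested known microRNAs outside the family. The distances were not repeated without NoASO library 1, where miR-30c-5p and miR-30b-5p lay at −0.73 and −0.92 from their own means. How far the matches of these entries rest on that library was not tested. Closest to miR-30c-5p were miR-652-3p (0.046), miR-660-5p (0.065) and miR-454-3p (0.066). Closest to miR-30b-5p were miR-660-5p (0.091), miR-590-3p (0.093) and miR-5001-3p (0.10). miR-660-5p, the entry common to both, averaged 180 CPM with ASO and 132 CPM without (log2 fold change 0.46, edgeR adjusted p = 0.445). miR-30b-5p itself lay at 0.14 from miR-30c-5p, which was rank 39 of 538 by distance from miR-30c-5p and rank 7 of 538 by distance from miR-30b-5p.

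The other 3 entries had a different set of neighbours. miR-4677-3p (0.041), let-7c-5p (0.050) and miR-148b-3p (0.057) were closest to miR-30a-5p. let-7c-5p (0.052), miR-340-5p (0.058) and miR-4677-3p (0.066) were closest to miR-30e-5p. miR-146b-5p (0.046), miR-641 (0.046) and miR-215-5p (0.062) were closest to miR-30d-5p. Within the family, miR-30d-5p lay at 0.059 and miR-30e-5p at 0.063 from miR-30a-5p, against 0.36 for miR-30c-5p and 0.43 for miR-30b-5p.

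The let-7, miR-26 and miR-15/16 families, encoded at several loci, also held members with small and with large differences between the group means. NoASO library 1 is included in these means. On the log2 scale it departed from the mean of the other controls by 0.40 for let-7i-5p, −0.54 for miR-26b-5p and −0.34 for miR-29a-3p. The departure was −0.065 for let-7a-5p and −0.060 for miR-26a-5p. Over the miR-15/16 entries its median was −0.51, with 5 of 6 lower. Group means without this library are not given here. In the let-7 family, which restrains growth genes, 0 of 9 tested entries passed edgeR's adjusted threshold and 0 had an unadjusted p under 0.05 (median log2 fold change 0.0084). Over all tested entries 1 of 745 passed that threshold (0.134%) and 78 (10.5%) had an unadjusted p under 0.05. let-7a-5p averaged 47841 ± 1899 CPM with ASO and 47572 ± 1077 CPM without, and let-7i-5p 15708 ± 1374 CPM with ASO and 18942 ± 3256 CPM without (SD, n = 4 each). Both tested entries of the miR-26 family, which restrains cell-cycle genes, had an unadjusted p under 0.05 and missed the adjusted threshold (edgeR adjusted p = 0.445 for both). miR-26a-5p averaged 43478 ± 1674 CPM with ASO and 40283 ± 1287 CPM without, and its relative miR-26b-5p 6591 ± 1922 CPM with ASO and 4546 ± 836 CPM without (SD, n = 4 each). Of the miR-29 family, repressors of collagen genes, miR-29a-3p was tested (log2 fold change 0.30, edgeR adjusted p = 0.405). In the miR-15/16 family 5 of 6 tested entries had a fold above 1, with a median log2 fold change of 0.32. At edgeR's adjusted threshold 1 entry was called lower and 0 higher, and 3 had an unadjusted p under 0.05. The entry that fell was miR-503-5p (log2 fold change −0.91, edgeR adjusted p = 0.00854), with 127 ± 9.01 CPM with ASO and 238 ± 21.6 CPM without (SD, n = 4 each). This call was lost with no filter on low counts (edgeR adjusted p = 0.113), with the library number as a block (edgeR adjusted p = 0.241) and without NoASO library 2 (edgeR adjusted p = 0.0602). Over all 15 alternatives its fold change lay between −0.95 and −0.86 on the log2 scale. Whether the miR-30 family differed from these families was not tested.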

How the data were processed

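Small RNA from 4 ASO and 4 NoASO libraries was compared. Per the labels' protocols, RNA went through a small RNA library kit from NEB. The submitters' processing notes name bcl2fastq 2.20, Trimmomatic 0.30, edgeR 3.4.6 and GRCh38; neither aligner nor counter is given in the sources used here, so how reads shared by near-identical entries were assigned is unknown. The authors deposited raw counts per entry. They also deposited columns headed TPM, which equal CPM to within 0.223 CPM and were not used further.

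The filter kept entries whose mean count was 10 or more and that were above 0 in 4 or more libraries (745, of which 539 known). They were tested with edgeR 4.0.16's quasi-likelihood test in R 4.3.3, with TMM factors of 0.966 to 1.03, no covariate, and two-sided p-values with Benjamini-Hochberg adjustment at 0.05. Standard errors are the log2 fold change divided by the square root of F. Permutation tests and distances used log2(CPM + 1) in scipy 1.17.1. DESeq2 1.42.0, other scalings and filters, known entries alone, a replicate block and leaving out each library were alternatives. Spread and ratios without NoASO library 1 were added after seeing the data. Every family entry was named, with the 3 closest profiles of each. The members and lists were chosen with earlier results of these data known. A planned ratio of 5p to 3p arms was not computed, since the rule found 5p arms alone.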

Additional observations from a re-analysis of the deposited data

Results flagged for a closer look

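In the ASO libraries, the share of miR-30a-5p in the summed miR-30 counts was 38.9% in ASO library 1 and 37.1%, 37.0% and 37.1% in ASO libraries 2 to 4. The gap between ASO library 1 and the nearest other library was 0.913 of the range of the 4, above Dixon's critical value. The levels of the 5 entries, their sum and their shares were examined in this way in each group, 22 sets of 4 libraries in all, and 1 was found, where chance gives about 1 in 20.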

How the results depend on the processing

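The library number is not stated to pair libraries, so no pairing was assumed. Deviations from the group means had r of 0.0074, 0.034, 0.30 and −0.039 between same-numbered libraries. Between libraries of different numbers r ran from −0.26 to 0.18. With the number as a replicate block edgeR called 0 entries. Across all entries edgeR called 1 entry, 0 with no filter on low counts, 4 with a mean count of at least 100, 4 among known microRNAs only and 23 with DESeq2; leaving out 1 library gave 0 (without NoASO library 2) to 5 (without NoASO library 4), and 2 without ASO library 1, ASO library 4, NoASO library 1 or NoASO library 3. Under none of the 15 alternatives did a miR-30 entry pass. miR-30c-5p kept a log2 fold change of 0.42 to 0.46 over 7 other settings (0.46 with the replicate block) and 0.30 to 0.54 with 1 library left out, and miR-30b-5p 0.50 to 0.54 and 0.35 to 0.65.

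The sign of the 3 steady entries was not fixed. miR-30a-5p turned to 0.0022 with library totals only and 0.010 with no filter, and ran from −0.059 to 0.037 with 1 library left out. miR-30e-5p turned to −0.0088 with median-ratio scaling and with DESeq2 and to −0.0030 with the replicate block, and ran from −0.055 to 0.049. miR-30d-5p ran from −0.083 to 0.016, turning without NoASO library 1. The summed family level differed by 2347 CPM with median-ratio scaling, 3087 CPM with library totals and 1696 to 4143 CPM with 1 library left out. The lowest count of a member in any library was 1776, so counting error was small beside the spread between libraries. Without NoASO library 1, an alternative chosen after seeing the data, the SD over libraries of the log2 level was 0.22 for miR-30c-5p and 0.29 for miR-30b-5p, against 0.36 and 0.46 with all 8. The cause of these changes was not tested.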

Other observations

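The table gives a length for each entry, 24 for miR-30a-5p, miR-30d-5p, miR-30c-5p and miR-30e-5p and 22 for miR-30b-5p. RefSeq gives 22 bases for miR-30a-5p and miR-30e-5p and 23 for miR-30c-5p. Of the 471 tested known entries matched to RefSeq by name, 247 (52.4%) had the RefSeq length in the table, 82 (17.4%) a shorter one and 30.1% a longer one, 29 of them by exactly 2 bases. What the deposited length measures is not given in the sources used here.

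Runs of identical bases were sought between the hairpin of the presumed target, MIR31, and the miR-30 hairpins. The longest was 7 bases for MIR30E and MIR30C1 and 6 bases for MIR30A and MIR30C2. Over 1561 human hairpins the median was 6, and 30.04% had a run of at least 7. These runs cover whole hairpins, and the sequence of the oligonucleotide was not compared. They therefore do not measure its pairing with a miR-30 entry.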
